A study of Mus musculus with 10 samples.

Results

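The comparison asked what the loss of Tet1 does to gene expression in mouse embryonic stem (ES) cells that already lack Tet2. It set the male Tet1/Tet2 double knockout (DKO) lines 51 and 61, on 3 arrays, against the male Tet2 knockout (T2KO) line 16, on 2 arrays, so that both sides lacked Tet2 and only the DKO side also lacked Tet1. These 5 of the 10 two-colour arrays were chosen by genotype and dye, and only their Cy5 (red) channel was compared. All lines came from mice of a mixed C57BL/6 background and grew in medium with LIF on irradiated feeder cells, which preplating removed before RNA was extracted. The Cy3 channel of the DKO arrays held the male wild-type (WT) lines 6 and 92, and that of the T2KO arrays held the male Tet1 knockout (T1KO) line 65. The T1KO line 99, the female DKO lines 60 and 59 and the female WT lines 7 and 94 were on the other arrays and bring the labelled lines to 11. T2KO is a single line, while the design text calls the lines of each other genotype independent, and no dye was swapped. The labels do not describe the alleles. The male DKO and male WT lines lay on 1 slide, the female lines on another, and T2KO and T1KO on a slide of their own, so slide and genotype cannot be told apart in DKO minus T2KO.

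TET1 and TET2 use oxygen and iron to turn 5-methylcytosine in DNA into 5-hydroxymethylcytosine and further products, and ES cells are rich in both. TET1 carries a CXXC domain and is known to lie at CpG-rich promoters, where it also meets corepressors such as the SIN3A complex, whereas TET2 has no such domain and oxidises more at gene bodies and enhancers. In ES cells their loss is known for shifts in genes of early lineages and of the germline rather than for a loss of self-renewal.

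Among the genes that followed the Tet1 genotype in all 11 lines, described further down, the 250 bases before the start of the 2 with the widest gap upward and the 2 with the widest gap downward, other than Tet1 and among genes with a single listed start, are shown here. They are RefSeq sequences of GRCm38.p6, read 5′ to 3′ on the gene's strand, and capitals mark CpG, the dinucleotide that TET enzymes act on.
Zfp467, chr6:48445091-48445340, minus strand: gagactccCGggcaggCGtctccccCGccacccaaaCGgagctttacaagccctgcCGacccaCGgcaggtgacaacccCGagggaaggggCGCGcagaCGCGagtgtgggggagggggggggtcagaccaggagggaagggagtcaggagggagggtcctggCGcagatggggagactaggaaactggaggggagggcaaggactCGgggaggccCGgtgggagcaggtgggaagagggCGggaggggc
Alox5, chr6:116461179-116461428, minus strand: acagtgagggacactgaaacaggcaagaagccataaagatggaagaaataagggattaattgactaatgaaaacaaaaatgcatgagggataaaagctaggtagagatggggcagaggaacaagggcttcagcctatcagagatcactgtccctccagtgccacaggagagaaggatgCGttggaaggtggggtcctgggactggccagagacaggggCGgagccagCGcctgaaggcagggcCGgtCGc
Celsr3, chr9:108825795-108826044, plus strand: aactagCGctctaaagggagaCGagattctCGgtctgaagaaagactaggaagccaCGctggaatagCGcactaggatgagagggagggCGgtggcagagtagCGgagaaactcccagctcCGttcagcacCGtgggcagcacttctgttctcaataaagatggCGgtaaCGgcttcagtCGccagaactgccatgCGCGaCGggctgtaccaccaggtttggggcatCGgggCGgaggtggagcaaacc
Klk8, chr7:43797327-43797576, plus strand: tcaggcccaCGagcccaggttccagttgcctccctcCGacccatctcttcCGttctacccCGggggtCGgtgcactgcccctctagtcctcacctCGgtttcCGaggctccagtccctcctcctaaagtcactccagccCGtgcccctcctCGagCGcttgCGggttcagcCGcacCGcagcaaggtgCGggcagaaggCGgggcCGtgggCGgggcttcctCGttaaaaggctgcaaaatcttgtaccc
They hold 15, 5, 17 and 18 CpG. Over all tested genes with such a sequence (12068 of 20070, the first listed start of each) the median was 14 CpG, and 66.8% held 10 or more. The medians were 17 for genes higher and 15.5 for genes lower in every Tet1-null line, and 11 and 8 for genes over 1 log2 higher or lower in DKO than in T2KO. No methylation was measured, and these counts describe the sequence only.

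Of the gene spots on the 5 arrays, 62.6% to 67.4% were well above background in Cy5, and the number of lines limits the precision. The cells had high levels of ES cell genes: the median normalized level of 12 defining genes was 15.05 in DKO 51, 14.82 in DKO 61 and 15.08 in T2KO 16, on the log2 scale used throughout. Genes typical of feeder fibroblasts were measured too, with a median level over 37 of 38 genes of 11.07, 11.21 and 11.03 in these lines. None passed the test, and 0 were higher and 2 lower at an unadjusted p under 0.05 by limma. The list's median difference was 0.24, with 27 of 37 positive and 18 above T2KO on all DKO arrays, where 30.3% of all genes were. In bulk RNA, fewer cells of a type and less RNA per cell cannot be told apart. The 2 lower genes were Fn1, fibronectin (-0.64), and Pdgfrb, a growth factor receptor (-0.50), while the collagens Col1a1, Col1a2 and Col3a1 differed by 0.082, 0.28 and 0.0029. The Y-linked genes Ddx3y and Eif2s3y set lines apart. They had levels of 7.31 and 6.70 in T1KO 99, which is labelled male, where the female lines lay at 6.63 to 6.94 and at 6.14 to 6.80. In DKO 51 they stood at 7.20 and 8.75, below 9.65 and 10.42 in DKO 61 and 8.66 and 10.86 in T2KO 16. T1KO 99 bears on DKO minus T2KO through the normalization and the spread, and the counts are given with and without its arrays.

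Tet1 itself checked the labels. Its normalized level was 11.03 and 11.12 on the 2 arrays of DKO 51, 10.83 in DKO 61, and 12.91 and 12.92 on the 2 arrays of T2KO 16. The T2KO arrays lay within the range of the 4 WT lines (12.78 to 13.13), and the DKO arrays lay with the T1KO lines 99 and 65 (11 and 10.92). The difference was -1.96 (SE 0.17, 95% interval -2.35 to -1.56), a 3.89-fold fall that limma's adjusted p placed at 0.0387. By the mm9 annotation of the array, the tested probe lies on chromosome 10 from 62274448 to 62274507, and the other Tet1 probes gave -1.81 and -1.92. The sources used here do not say which exons were deleted, so whether a probe lies in the deleted part is unknown. Tet2, knocked out on both sides, stood at 9.80 and 9.76 in DKO 51, 10.12 in DKO 61 and 9.79 and 9.70 in T2KO 16, below the 11.51 to 12.05 of the WT lines. The difference of 0.20 (95% interval -0.36 to 0.77) turned to -0.23 when the background model was fitted on all spots. Tet3, the remaining enzyme of the family, was 8.70 and 8.69 in DKO 51, 8.73 in DKO 61 and 8.43 and 8.41 in T2KO 16. The arrays did not overlap, but the difference of 0.29 (SE 0.11) had a limma adjusted p of 0.299.

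Over the whole array, 3 of 20070 genes passed limma's test at an adjusted p of 0.05 (0.0149%), of which 2 rose (0.00997%) and 1, Tet1, fell (0.00498%). The unadjusted p was under 0.05 for 2851 genes (14.2%), where chance alone would give 1003.5, with 1576 higher (7.85%) and 1275 lower (6.35%) in DKO. Without DKO 51 the count was 0 (2974 genes at an unadjusted p under 0.05 by limma), without DKO 61 it was 1, and with the second T2KO array left out it was 13. Without the arrays of T1KO 99, whose Y-linked genes went against its label, 4 genes passed, none of them among the 3, and Tet1 was at -1.96 with a limma adjusted p of 0.0627. The count was also 0 in a fit on the male lines alone (2694 at an unadjusted p under 0.05) and 36 (32 higher, 4 lower) with the scanner software's processed signals.

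Gm5801, a predicted gene, had the larger rise of the 2 genes that passed upward. Its levels were 12.18 and 12.14 on the arrays of DKO 51, 11.75 in DKO 61 and 9.79 and 9.87 in T2KO 16. The rise was 2.12 (SE 0.18, 4.36-fold, limma adjusted p = 0.0387). T2KO 16 stood apart from every other labelled line. The WT lines ranged from 11.87 to 12.35, the T1KO lines were at 11.82 and 11.86 and the female DKO lines at 11.26 and 11.11. Its probe is placed on chromosome 4 (155331600 to 155331655) by the array's design and the gene on chromosome 14 by RefSeq, so which locus was measured is uncertain. Miip encodes a protein known to restrain cell migration. It was 9.80 and 9.92 in DKO 51, 9.54 in DKO 61 and 7.85 and 7.88 in T2KO 16, and it rose by 1.84 (SE 0.17, 3.58-fold, limma adjusted p = 0.0390). Again T2KO 16 was the lowest of 11 lines, with the WT lines at 9.94 to 10.55 and the female DKO lines at 8.68 and 8.96. Over the 21 alternatives tried, Gm5801 stayed between 1.54 and 2.33 and Miip between 0.96 and 2.09, always higher in DKO, while their adjusted p ranged from 0.0183 to 0.529 and was past 0.05 in 10 and 12 of them. The fall of Tet1 stayed between -2.08 and -1.84, and its adjusted p was past 0.05 in 11.

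**Figure D1:**
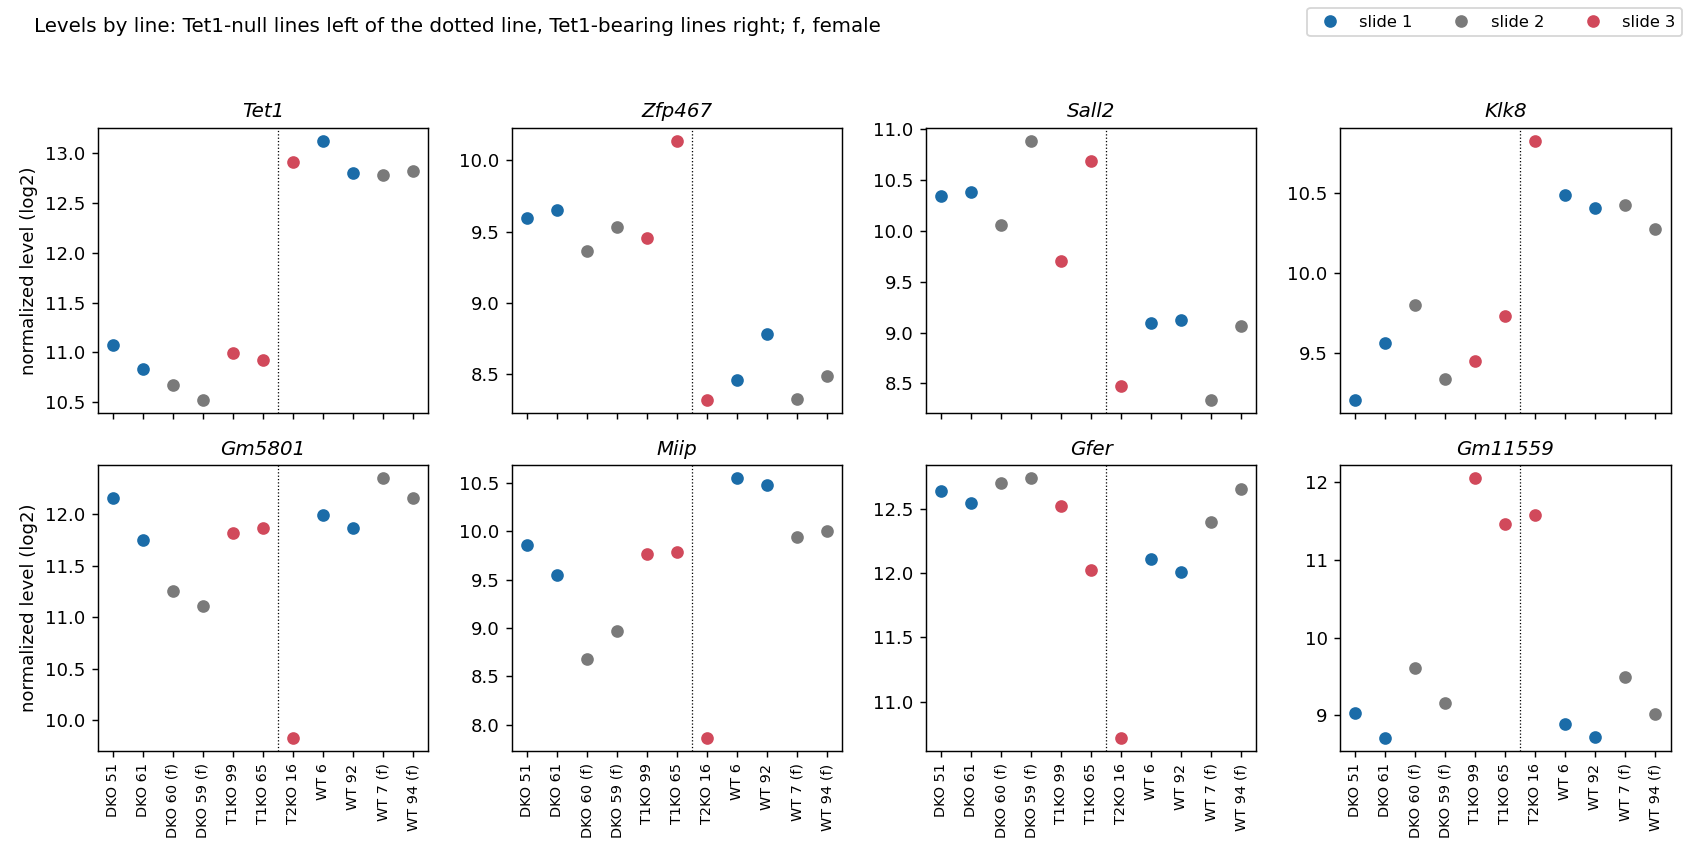
Normalized log2 level (y axis) of 8 genes in each of the 11 labelled lines (x axis), 1 point per line as the mean of its arrays, coloured by slide, with the 6 Tet1-null lines left of the dotted line and f for female. Tet1, Zfp467, Sall2 and Klk8 split at the dotted line. Among these lines T2KO 16 alone is low for Gm5801, Miip and Gfer, and Gm11559 is high in all 3 lines of slide 3. The Cy5 channel labelled as a false genotype is not drawn.

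The 24 named genes at the top of the ranking, 12 in each direction and with no overlap between the 3 DKO and the 2 T2KO arrays, fell into 3 patterns across the lines that overlap in part. Such a lack of overlap is common here, at 30.3% of genes higher and 28.1% lower in DKO, so it selects little by itself. In 9 of the 12 higher genes T2KO 16 was the lowest of all 11 lines, and in 10 of the 12 lower genes it was the highest, against 9.92% and 11.8% of all genes. The ranking compares the DKO lines with T2KO 16 alone and so favours such genes, and these counts are a description. In 8 of the 24, the T2KO and T1KO lines together lay apart from all 8 lines of the other slides, which held for 7.66% of all genes (2.71% with these lines above and 4.95% below). In 4 (Tet1, Klk8, Tmem45b and A830052D11Rik) the Tet1-null lines lay apart from all Tet1-bearing lines.

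The first pattern held the largest values. Rpl39l, a copy of a ribosomal protein gene that is used in the testis, was 9.96 and 9.76 in DKO 51, 8.91 in DKO 61 and 12.95 and 12.92 in T2KO 16. The difference was -3.55 (SE 0.49, limma adjusted p = 0.0807), with the WT lines between at 10.71 to 11.75. Rbm44, an RNA-binding protein of germ cells, was 7.13 and 7.15 in DKO 51, 6.73 in DKO 61 and 9.59 and 9.50 in T2KO 16, a difference of -2.61 (SE 0.35). No other labelled line was above 7.94. Tmc7, of the transmembrane channel-like family, had 9.44 and 9.38 in DKO 51, 9.71 in DKO 61 and 7.52 and 7.54 in T2KO 16, a difference of 2.03 (SE 0.26). Gfer, a sulfhydryl oxidase of the mitochondrial intermembrane space, had 12.60 and 12.69 in DKO 51, 12.55 in DKO 61 and 10.67 and 10.77 in T2KO 16, a difference of 1.88 (SE 0.21). The other 8 lines ranged from 8.76 to 9.55 for Tmc7 and from 12.01 to 12.74 for Gfer, so T2KO 16 alone was low among the labelled lines. A second Tmc7 probe, not well above background on these arrays, differed by 0.14. Jak3, a kinase of cytokine receptors, differed by -1.47 and by -1.74 on its other probe. Ly6k, Gsg1 and Ybx2, all known from male germ cells, differed by -1.69, -1.25 and -1.18, and Slc29a4, a monoamine transporter, by -1.03. Sntb1, a syntrophin, rested on 1 array, since its 2 T2KO arrays gave 8.79 and 7.50. None of these passed, with limma adjusted p from 0.0802 to 0.104.

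In the second pattern the T2KO and T1KO lines, which shared a slide, lay together. They are also the only single-knockout lines, so slide and single knockout cannot be told apart here. Gm11559, a predicted gene, was 9.12 and 8.94 in DKO 51, 8.71 in DKO 61 and 11.63 and 11.53 in T2KO 16, a difference of -2.71 (SE 0.31, limma adjusted p = 0.0802). The T1KO lines were as high at 12.05 and 11.46, and no line of the other slides was above 9.61. Its other probe, not above background on these arrays, differed by -0.19. Slc8a3, a sodium/calcium exchanger, was 9.19 and 9.24 in DKO 51, 9.06 in DKO 61 and 8.09 and 8.15 in T2KO 16. Its T1KO lines were at 8.13 and 7.99, and its other 6 lines at 9.02 to 9.10. Zfp133-ps, Lce1a2, 4932431P20Rik, Sfswap and Usp33 were likewise lower in the T2KO and T1KO lines than in all 8 others, with DKO minus T2KO of 1.27, 0.96, 1.02, 0.86 and 1.00. Cep131, a centrosomal protein, was higher in those lines, with -0.92. The margin between the nearest lines was narrow in Sfswap (0.18), Cep131 (0.085) and Usp33 (0.053).

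The pattern of Tet1 was seen on all 3 slides and in both dyes. Over 20060 genes with a value in every line, 163 (0.813%) were higher and 172 (0.857%) lower in all 6 Tet1-null lines, which are the 4 DKO and both T1KO lines, than in all 5 Tet1-bearing lines. All 4 DKO lines lay above all other lines in 617 genes (3.08%) and below them in 602 (3%). The DKO lines were all in Cy5 and the other lines, apart from T2KO, all in Cy3. This split is thus nearly that of the dyes, and dye and double loss cannot be told apart in it. It also sets other numbers of lines against each other than the Tet1-null split. The counts of the DKO split and the Tet1-null split therefore do not compare double loss with Tet1 loss. Under 4 other scalings the Tet1-null count of 335 became 265 to 345, whereas quantile normalization of each dye took the 617 and 602 genes of the DKO lines to 2476 in all and that of the T2KO and T1KO lines, 1536, to 864. The gap between the nearest lines of the 2 sides was over 0.2 in 17 and 14 of them and over 0.4 in 5 and 4. After Tet1, with a gap of 1.70, the widest gaps were those of Zfp467, Sall2, Col26a1, Celsr3, Klk8, Alox5 and Tmem45b. All but Klk8 and Tmem45b were picked for this gap after values were seen. The choice fixed the sign of both DKO minus T2KO and T1KO minus male WT in these genes, so both are given as a description. Of the 335 genes, 1 passed limma's test in DKO minus T2KO and 144 had an unadjusted p under 0.05, as did 14.2% of all genes. The choice set every DKO line apart from the T2KO line and so favours small p-values. The count of 144 is therefore a description only.

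Zfp467, a zinc-finger protein, was 9.63 and 9.56 in DKO 51, 9.65 in DKO 61 and 8.37 and 8.27 in T2KO 16. It differed by 1.31 (SE 0.27, limma adjusted p = 0.147) in DKO minus T2KO and by 1.18 (SE 0.22) in T1KO minus male WT. The promoter printed above belongs to this gene, and its other probes gave 1.62, 1.50 and 0.51. Sall2, a zinc-finger transcription factor of the spalt family, was 10.30 and 10.39 in DKO 51, 10.38 in DKO 61 and 8.41 and 8.54 in T2KO 16. Its differences were 1.89 (SE 0.47, limma adjusted p = 0.191) without Tet2 and 1.09 (SE 0.38) with it. Alox5, the 5-lipoxygenase of leukotriene synthesis, differed by 0.82 and 0.85 in the same order, and Tmem45b, a transmembrane protein, by 0.96 and 0.91.

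On the lower side, Klk8, the serine protease neuropsin, was 9.22 and 9.20 in DKO 51, 9.57 in DKO 61 and 10.81 and 10.85 in T2KO 16. It differed by -1.44 (SE 0.23, limma adjusted p = 0.104) without Tet2 and by -0.85 (SE 0.19) with it. Celsr3, an atypical cadherin of planar cell polarity, was 8.01 and 8.06 in DKO 51, 8.24 in DKO 61 and 9.15 and 9.24 in T2KO 16, with differences of -1.06 and -1.03. Col26a1, a collagen, differed by -0.94 and -0.96. As a description, since the choice makes both contrasts share a sign, the difference between them was 0.13 (SE 0.34) for Zfp467, 0.80 (SE 0.61) for Sall2, -0.59 (SE 0.30) for Klk8 and -0.027 (SE 0.29) for Celsr3.

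The question whether Tet2 changes the response to Tet1 loss was put to all genes. The difference between DKO minus T2KO and T1KO minus male WT passed limma's test for 340 genes (1.69%), 275 upward (1.37%) and 65 downward (0.324%). A slide difference that both dyes share enters this value 2 times. In 339 of the 340 the 2 differences had opposite signs, where 40.4% of all genes had the same sign. In 334 the value with slide and dye cancelled, given further down, was under 0.5 in size. In 281 the T2KO and T1KO lines lay apart from every line of the other slides, as they did in 7.66% of all genes. Choosing genes by how far the 2 differences disagree favours opposite signs and a small mean, so these counts are a description. Without T1KO 99, whose Y-linked genes went against its label, 54 genes passed, 49 of them among the 340. Without the DKO 61 array, which also held WT 92, 0 passed, with 3435 at an unadjusted p under 0.05. Slide and interaction cannot be told apart in this count.

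**Figure D2:**
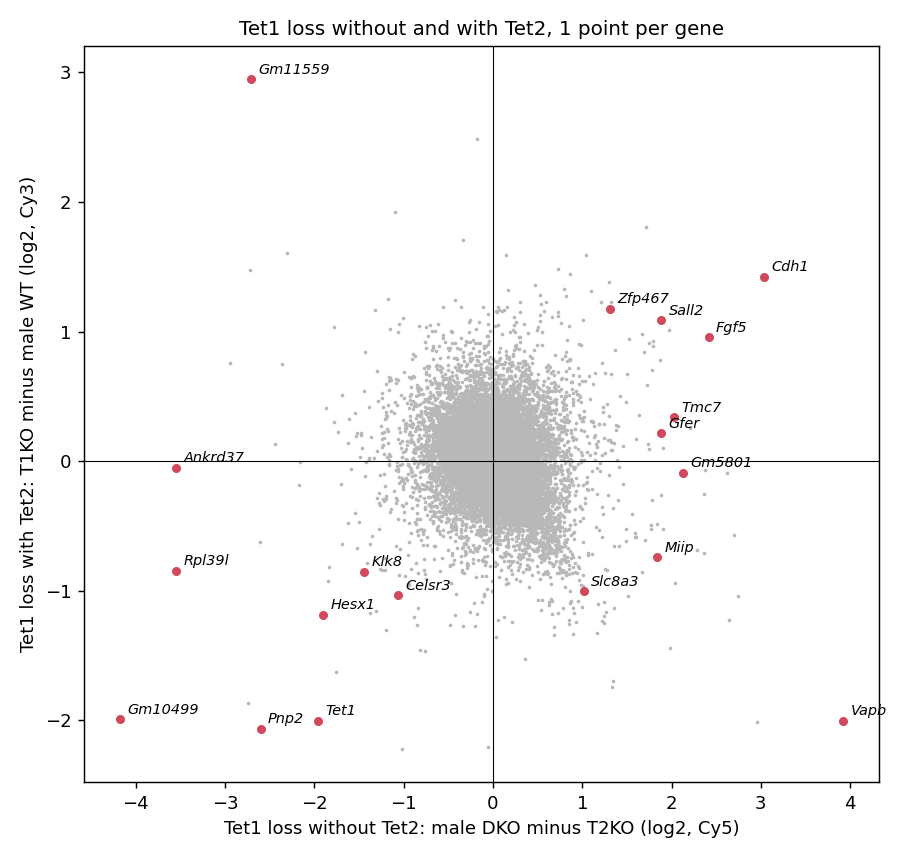
DKO minus T2KO in Cy5 (x axis, log2) against T1KO minus male WT in Cy3 (y axis, log2), 1 grey point per tested gene and the named genes in red. Tet1, Pnp2, Hesx1, Klk8 and Celsr3 lie in the lower left, Zfp467, Sall2 and Cdh1 in the upper right, and Gm11559 (-2.71, 2.95) and Vapb (3.92, -2.0) in the opposite corners, Vapb through 1 T2KO array at 5.80.

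The mean of DKO minus T2KO and of T1KO 65 minus WT lets slide and dye effects that both channels share cancel, because each DKO line shared an array with a WT line and T2KO 16 with T1KO 65. By limma over the 5 pairs of lines 0 genes passed, with the smallest adjusted p at 0.0849 and 2084 genes (10.4%) at an unadjusted p under 0.05, 6.22% upward and 4.16% downward. Tet1 had -2.0, Sall2 1.73 (SE 0.075) and Zfp467 1.41 (SE 0.090). Over 15 alternatives Tet1 ranged from -2.02 to -1.66, Sall2 from 0.81 to 1.87 and Zfp467 from 0.61 to 1.65. The value averages Tet1 loss with and without Tet2, and it rests on T1KO 65 alone. Of the 50 genes past 1 log2 in both differences, 22 had the same sign and 28 opposite signs, where 40.4% of all genes had the same sign. Besides those above, the same sign was seen in Pnp2, a purine nucleoside phosphorylase (-2.60 and -2.07), Hesx1, a homeobox repressor of the early forebrain (-1.90 and -1.19), and Usp44, a deubiquitinase (-1.75 and -1.63). Pnp2 was at 10.07 in T1KO 99 and at 6.96 in T1KO 65, so its T1KO value rests on the latter line. Among the 28, Vapb, Inpp5b and Fbxo33 rest on 1 spot each: Vapb was 14.02 on one T2KO array and 5.80 on the other, Inpp5b 5.74 and 11.60, and Fbxo33 9.67 and 5.80. All genes in this paragraph other than Tet1 were chosen after their values were seen.

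The size of the differences was also set against that between lines. In DKO minus T2KO, 161 genes (0.802%) were over 1 log2 higher and 164 (0.817%) lower. Repeat arrays differed that much in 12 genes for DKO 51 and in 14 for T2KO 16. The DKO lines differed from each other in 363 genes and the male WT lines in 340, beside 325 between DKO and T2KO. DKO 51 differed from T2KO 16 in 352 genes and DKO 61 in 630. Of the 325, T2KO 16 was outside all 10 other lines in 198 (60.9%), the T2KO and T1KO lines were apart in 30, and the Tet1-null lines were apart in 24. Over all genes T2KO 16 was lowest in 9.92% and highest in 11.8%. The T2KO and T1KO lines were apart in 7.66%, and the Tet1-null lines lay above in 0.813% and below in 0.857%. The 325 were chosen by their distance from T2KO 16, which favours genes where it is outermost. With the background model fitted on all spots 143 genes were past 1 log2, and with the scanner software's processed signals 1013.

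**Figure D3:**
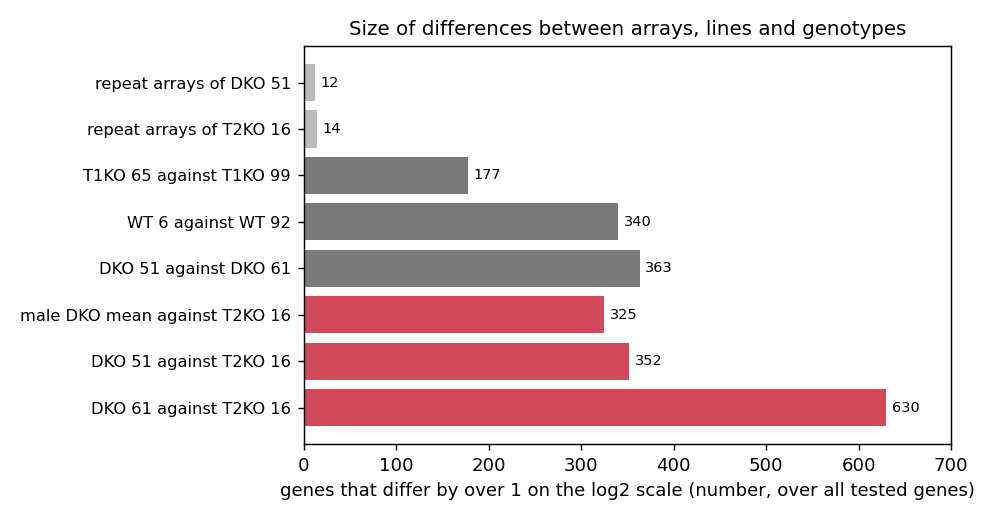
Number of genes that differ by over 1 on the log2 scale (x axis) between repeat arrays of a line (light grey), between lines of a genotype (dark grey) and between DKO and T2KO (red). Repeat arrays give 12 and 14, lines of a genotype 177 to 363, and DKO against T2KO 325 to 630.

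Gene lists of ES cell biology were read by their counts, and in each of them except the one that holds Tet1 no gene passed. Over all genes the median of DKO minus T2KO was 0.01, with an unadjusted p under 0.05 at 7.85% upward and 6.35% downward. Genes of the primed epiblast, the state after implantation, had a median of 0.57 over 15 of 16 genes, at 0.40 in DKO 51 and 0.85 in DKO 61, and 13 of 15 were positive. No gene passed, 3 had an unadjusted p under 0.05, all upward, and in 10 of 15 the DKO arrays lay above both T2KO arrays, as they did in 30.3% of all genes. Fgf5, the growth factor that marks this state, was 9.15 and 9.12 in DKO 51, 10.55 in DKO 61 and 7.40 and 7.46 in T2KO 16. It differed by 2.42 (SE 0.77, limma adjusted p = 0.243). WT 7 was as low as T2KO 16 at 7.41, so the arrays compared did not overlap but the genotypes did. Sox3 and Pou3f1, transcription factors of the epiblast and neural plate, differed by 1.32 and 1.26, and Pim2, a kinase, by 0.80. In Sox3 and Pou3f1 T2KO 16 was the lowest of 11 lines. The list's median level was also lowest in T2KO 16, at 9.86. It was 10.88 and 11.37 in DKO 51 and 61, and 11.09 and 10.79 in WT 6 and 92. In T1KO minus male WT the list's median was -0.05.

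Naive pluripotency genes leaned the other way, with a median of -0.44 over 18 genes and 16 of 18 below 0. No gene passed, and 3 had an unadjusted p under 0.05, all downward. The lines disagreed in size, at -0.09 in DKO 51 and -0.74 in DKO 61. Esrrb, an orphan nuclear receptor of the naive network, was 15.90 and 15.66 in DKO 51, 15.19 in DKO 61 and 16.18 and 16.15 in T2KO 16, a difference of -0.68 (limma adjusted p = 0.332). Nanog was 15.51 and 15.55 in DKO 51, 15.10 in DKO 61 and 15.83 and 15.88 in T2KO 16, a difference of -0.54. Another Nanog probe, dimmer at 7.90 in T2KO 16, gave 0.14. Tfcp2l1 differed by -0.31 in DKO 51 and by -1.55 in DKO 61. Core pluripotency genes had a median of -0.08. For this group and the primed one, the feeder fibroblast list moved along with the line: its median was 0.06 in DKO 51 and 0.37 in DKO 61 against T2KO 16, and its part in the result was not tested.

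**Figure D4:**
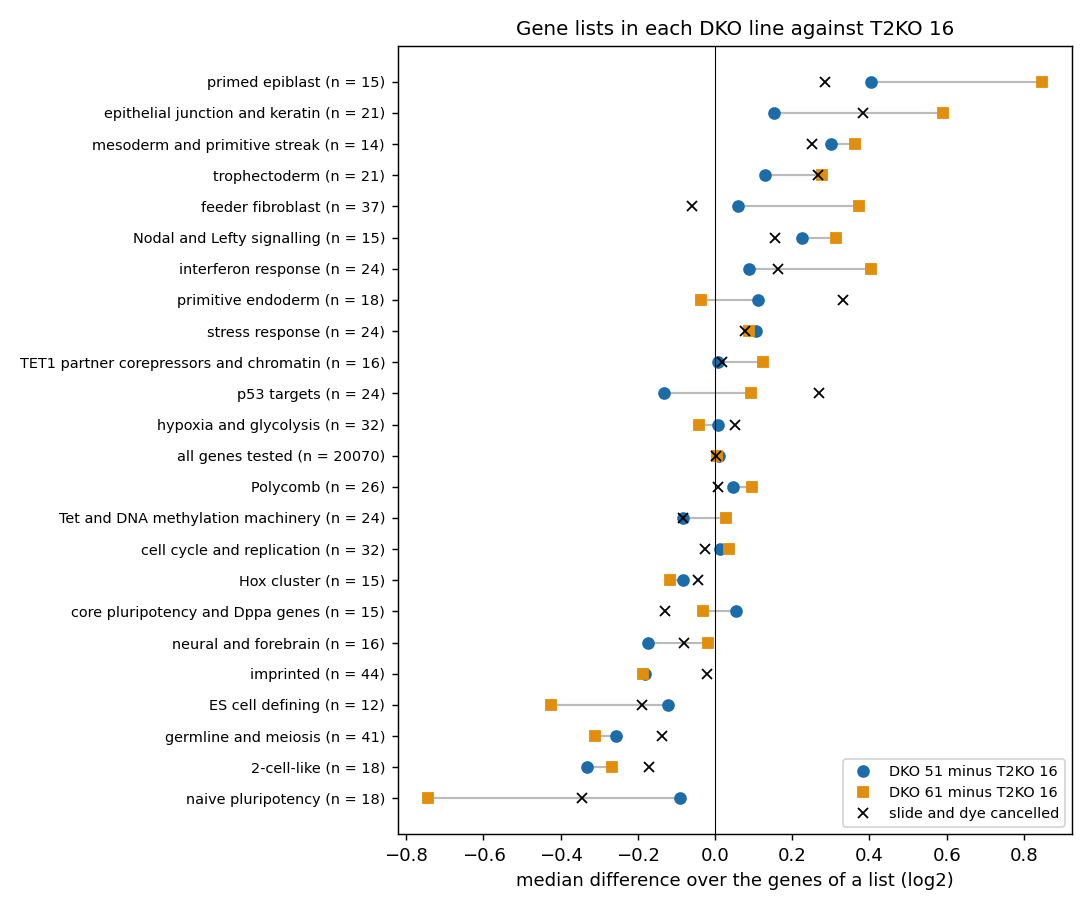
Median difference over the tested genes of each list (x axis, log2) for DKO 51 (circles) and DKO 61 (squares) against T2KO 16, and for the mean of Tet1 loss with and without Tet2 in which slide and dye cancel (crosses). Primed epiblast genes lie at 0.40 and 0.85 and naive pluripotency genes at -0.09 and -0.74, while all genes lie at 0.01.

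Epithelial junction and keratin genes had a median of 0.38 over 21 genes, at 0.15 in DKO 51 and 0.59 in DKO 61. The feeder list differed between these lines in the same direction (0.06 and 0.37), and its part in the result was not tested. Cdh1, E-cadherin, was 12.36 and 12.35 in DKO 51, 11.83 in DKO 61 and 9.04 and 9.08 in T2KO 16, a difference of 3.03 with an SE of 1.50 (limma adjusted p = 0.404). It was also low in WT 6 (9.34), WT 92 (9.10) and T1KO 99 (8.80) and high in T1KO 65 (12.48) and WT 7 (12.96), so it did not follow any genotype. Dsp, a desmosomal plaque protein, was 10.65 and 10.61 in DKO 51, 10.76 in DKO 61 and 9.58 and 9.59 in T2KO 16, a difference of 1.11 (SE 0.33). Krt18, a keratin, differed by 1.75, at 14.88 and 14.84 in DKO 51 and 16.34 in DKO 61.

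Germline and meiosis genes, of which 41 of 49 were measured, had a median of -0.29. Against T2KO 16 the median was -0.26 in DKO 51 and -0.31 in DKO 61. In the female DKO lines 60 and 59 it was closer to that of all genes, at -0.10 and -0.08. An unadjusted p under 0.05 was reached by 8 genes, all lower in DKO, and 19 of 41 lay below T2KO on all arrays, as did 28.1% of all genes. Hormad2, a meiotic chromosome axis protein, was 8.27 and 8.18 in DKO 51, 8.28 in DKO 61 and 9.27 and 9.07 in T2KO 16, a difference of -0.92 (SE 0.18, limma adjusted p = 0.144). Tex101, a testis glycoprotein, differed by -1.29 (SE 0.28). Their values in T1KO minus male WT were -0.07 and 0.08, and in both T2KO 16 was the highest of 11 lines. Imprinted genes had a median of -0.17 over 44 genes, with 4 higher and 6 lower at an unadjusted p under 0.05. Mest, expressed from the paternal allele, was 11.27 and 11.37 in DKO 51, 11.06 in DKO 61 and 12.51 and 12.46 in T2KO 16, a difference of -1.30 (SE 0.32) with -1.02 and -0.73 on its other probes. Cdkn1c, a maternally expressed inhibitor of the cell cycle, differed by 0.77 (SE 0.25).

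Lists of the TET system had medians near 0. Of 24 genes of the Tet and DNA methylation machinery, Tet1 was the one that passed, and the median was -0.0019. Mbd4, a glycosylase of T:G mismatches, differed by -0.41 and Dnmt3l, the cofactor of de novo methylation, by -0.63. Among 16 corepressor and chromatin partners of TET1 the median was 0.05, with Mta2, of the NuRD complex, at 0.51 and Sap30, of the SIN3A complex, at -0.61. The 26 Polycomb genes had a median of 0.0029.

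Lists of mesoderm, Nodal and Lefty, trophectoderm, primitive endoderm and neural genes had medians between -0.09 and 0.28. Mesoderm and streak genes had a median of 0.28 over 14 genes, with Cdx2 at 0.83. Evx1, not well above background in T2KO 16, was 1.47-fold higher in DKO as measured (limma adjusted p = 0.251). The bound for its dim T2KO signal equals the measured signal, since that lay above the lowest signal called well above background. Over the alternatives tried, its difference was 0.36 to 1.21 on the log2 scale. Nodal and Lefty genes had 0.24 over 15 genes, with the coreceptor Tdgf1 at 0.34 and at 0.090 and 0.057 on its other probes. Trophectoderm genes had 0.24 and primitive endoderm genes 0.07. Neural genes had -0.09, and Hesx1, described above, had the smallest p among them. Ankrd37, which hypoxia is known to induce, differed by -3.54 (SE 0.58, limma adjusted p = 0.105), at 8.30 in DKO 51, 8.65 in DKO 61 and 12.02 in T2KO 16. Its list as a whole had a median of 0.01. Interferon response genes had 0.19, with Psmb9, an immunoproteasome subunit, at 1.22 and Ddx58, the RNA sensor RIG-I, at 0.67, and 2-cell-like genes had -0.33. Against T2KO 16 the 2-cell-like median was -0.0040 in the female line DKO 60 and 0.60 in the female line DKO 59. Stress, p53 target, cell cycle and Hox genes had medians of 0.05, 0.04, -0.02 and -0.07.

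The neighbourhood of the targeted genes was also measured. Within 5 Mb of Tet1 on chromosome 10, 0 of 83 genes passed limma's test, 6 were higher and 4 lower at an unadjusted p under 0.05, and the median was 0.012. Over all genes 7.85% were higher and 6.35% lower at that p. The smallest p was that of Ranbp2, a nucleoporin, at 0.45 (SE 0.11), with the T2KO and T1KO lines below all lines of the other slides. Around Tet2, which is deleted on both sides, 0 of 55 passed, 5 were higher and 1 lower at an unadjusted p under 0.05, and the median was -0.042.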

How the data were processed

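RNA of mouse ES cell lines was measured on 10 two-colour Agilent arrays, with the mutant in Cy5 and the WT or T1KO line in Cy3. The authors' deposited scanner files hold spot intensities and a log10 ratio of red over green from Agilent Feature Extraction 10.1.1.1, per the file headers. A deposited value table holds log2 ratios of the same arrays, per its match to the scanner values (r 0.927 to 0.968, column medians 0.00178 to 0.00752); its centring and normalization are unknown.

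From the mean and background intensities, normexp (offset 50) was fitted without the 90 to 122 gene spots below background per array, a choice adopted after gene values had been seen. Loess within arrays and quantile normalization of the average channel intensity (Aquantile) followed, so values are log2 levels per channel. Control and outlier spots (201 to 337) were left out, and repeat arrays of a line were averaged. The Cy5 channel of the T1KO 99 arrays, labelled as a false genotype, entered the normalization but no fit.

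Of 39429 probes, 26581 were named through RefSeq and the rest by the file's own name. A probe was tested if well above background in Cy5 on all male DKO or all T2KO arrays (25131 probes), and the brightest probe stood for each of 20070 genes (4187 had several). limma 3.58.1 in R 4.3.3 fitted all 11 lines by group, two-sided, with Benjamini-Hochberg adjustment over all genes at 0.05 (5 residual and 2.73 prior degrees of freedom). T2KO, 1 line, is assumed to vary like the other groups. P-values measure the spread between lines. Log ratios of the 5 pairs of lines gave the value in which slide and dye cancel. The scripts were tested on simulated data.

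The 12 genes with the smallest p in each direction with no overlap of arrays were named, and up to 6 per list. The members and gene lists were chosen with earlier results of these data known. The alternatives were other background, scaling, filter, probe and line choices and leaving out arrays or lines.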

Additional observations from a re-analysis of the deposited data

Results flagged for a closer look

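The response to Tet1 loss differed between cells without and with Tet2 for 340 genes by limma's interaction test. Among the named genes the difference was positive for Miip (2.58), Zfp133-ps (2.43), Gm5801 (2.21), Slc8a3 (2.02), 4932431P20Rik (2.01), Lce1a2 (1.79), Gfer (1.66), Usp33 (1.37), Sfswap (1.35), Cdk1 (1.24) and Cdc6 (1.06). It was negative for Gm11559 (-5.66), Ly6k (-2.20), Gsg1 (-1.46) and Cep131 (-1.19). For Cdc6 the tested probe gave 0.64 in DKO minus T2KO and -0.43 in T1KO minus male WT. Another Cdc6 probe, also well above background, gave -0.064 and 0.0045. For Cdk1 the tested probe gave 0.69 and -0.55, and another such probe 0.072 and -0.15. For Lce1a2 the tested probe gave 0.96 and -0.83, and another such probe 0.48 and -0.48. T2KO and T1KO shared a slide, so slide and interaction cannot be told apart in these values.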

How the results depend on the processing

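The count of genes past the threshold in DKO minus T2KO, 3, was 0 with the background model fitted on all spots, with the mean of a gene's probes, with the male lines only, with DKO 51, DKO 61 and T2KO 16 only, and without DKO 60 and WT 7, the last chosen after seeing the data. At an unadjusted p under 0.05 limma then gave 1871 to 2757 genes. The count was 36 with the scanner's processed signals and 21 with no filter on dim probes, and leaving out an array or line gave 0 to 13. The count for the difference between the backgrounds, 340, was 120 with the model fitted on all spots, 518 with scanner signals, 225 with median centring, 180 with a random block for lines on one array, 54 without the T1KO 99 arrays or line, and 0 with the male lines only or without DKO 60 and WT 7. Leaving out an array or line gave 0 to 366. With slide and dye cancelled the count of 0 was 3 with no filter. No value of a called gene changed sign. Among values of named genes 1709 kept their side of the threshold, 121 lost it and 21 gained it, and 7 that were not called changed sign. Of list medians 434 moved by less than their spread and 70 by more. By replicate number, no paired analysis was possible because the numbers mark repeat arrays of a line, which were averaged. Pairing by shared array was possible: it is the fit with slide and dye cancelled and the random block, which gave 3 genes for DKO minus T2KO. The precision is limited by the number of lines, and dim probes have only a bound.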

Other observations

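The Cy5 channel of the 2 arrays of T1KO 99, which the labels set aside for a false genotype, gives values of its own on the same slide as T2KO 16. As means of both arrays, Tet1 was at 12.99 and Tet2 at 10.0032, beside 12.91 and 9.74 in T2KO 16. The male WT lines had Tet2 at 12.05 and 11.51. Miip was at 7.92, Gm5801 at 10.04 and Gm11559 at 12.09, beside 7.86, 9.83 and 11.58 in T2KO 16. Rbm44 was at 8.69, Rpl39l at 11.30 and Gfer at 11.66, where T2KO 16 had 9.54, 12.94 and 10.72. Cdh1 was at 12.06, where T2KO 16 had 9.06.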
